A study of Mus musculus with 12 samples.

Results

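The genes described here are the subunits of the ionotropic and metabotropic glutamate receptors and of the GABA-A receptor. Members were taken by symbol from the deposited gene counts: Gria, Grik, Grin, Grid or Grm followed by a number, or the GABA-A prefixes Gabra, Gabrb, Gabrg, Gabrd, Gabre, Gabrp, Gabrq and Gabrr, without Grm3. The rule found 39 of 15774 genes, 24 for glutamate and 15 for GABA-A receptors. Of these, 38 passed the filter on low counts that left 15635 genes for testing, and Gabrr1 did not. RNA was sequenced from cortical cells of wild-type (WT) C57BL/6J mice that were isolated as astrocytes by fluorescence-activated sorting (FACS). Stroke was made by permanent ligation of the distal middle cerebral artery, with both common carotid arteries closed for 7 min afterwards. Cells were taken on day 1, 3, 7, 21 or 60, and the sham group had its skull surface lesioned and no artery closed. Each of the 6 groups holds 2 libraries, and all 12 share the genotype, the tissue and the sorted cell type. The age and sex of the mice, the marker used for sorting, and whether a library came from 1 animal or a pool were not given in the sources used here. Replicates were not stated to be separate animals, so p-values measure only the spread between these libraries, which may be technical.

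Glutamate opens AMPA, kainate and NMDA receptors, which are cation channels assembled from 4 subunits, and it activates metabotropic receptors, which signal through G proteins. GABA opens the GABA-A receptor, a chloride channel assembled from 5 subunits, most often alpha, beta and gamma or delta. Most of these genes are transcribed chiefly in neurons. Cortical astrocytes are known for their metabotropic receptors and also carry some ionotropic subunits.

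Promoter sequences of the mouse build GRCm38.p6 from RefSeq were available for 24 of the 39 genes, as 31 windows of 300 bases that run from 250 bases before a transcription start to 50 after it. Motifs were searched on both strands. RE1 is the element bound by REST, a repressor of neuronal genes in other cell types. Its left part was searched as TTCAGCACC and its right part as GGACAGCGC. The left part lay in 1 window (3.23%), that of Grm2, against 0.371% of 32851 windows of all genes. The right part lay in 1 window (3.23%), that of Gria2, against 0.405%. The cyclic AMP element TGACGTCA lay in 0 windows, against 1.79% of all, and its core TGACG, which that element contains, in 5 (16.1%) against 20.8%. A GC box, GGGCGG, lay in 15 windows (48.4%) against 35.7%, and TATAAA in 4 (12.9%) against 13.6%. The median GC content was 59.7% in the windows of these genes and 52.7% in all windows. A match is a description of these letters, not of a bound site. The windows of Gria2 (chr3:80802786-80803085, minus strand) and Grm2 (chr9:106656060-106656359, minus strand) are shown because they hold an RE1 part, in capitals. Both genes were also lower than sham at all 5 times in every fit described below, as were other subunits. In Gria2 the match lies on the strand opposite to the gene, so its capitals read GCGCTGTCC.
Gria2: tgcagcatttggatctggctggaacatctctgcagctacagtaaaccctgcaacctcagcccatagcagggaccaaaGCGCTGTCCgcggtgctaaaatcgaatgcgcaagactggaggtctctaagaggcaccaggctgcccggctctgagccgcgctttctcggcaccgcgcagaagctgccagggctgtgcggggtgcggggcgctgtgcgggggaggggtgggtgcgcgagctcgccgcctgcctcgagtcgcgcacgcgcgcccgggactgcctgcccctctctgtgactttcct
Grm2: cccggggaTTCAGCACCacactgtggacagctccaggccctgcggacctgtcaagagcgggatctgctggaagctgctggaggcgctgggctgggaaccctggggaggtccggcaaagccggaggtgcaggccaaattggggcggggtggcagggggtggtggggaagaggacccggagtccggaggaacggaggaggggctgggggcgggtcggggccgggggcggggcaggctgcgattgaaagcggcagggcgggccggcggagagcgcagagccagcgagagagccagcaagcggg
Gabra4 (chr5:71658259-71658558, minus strand) and Gabrb1 (chr5:71657671-71657970, plus strand) are neighbours on opposite strands whose first exons overlap by 46 bases. They are shown because both were lower on day 7 than on day 3. Those calls ended in 3 (Gabra4) and 10 (Gabrb1) of the 12 fits without 1 library. Capitals mark the GC boxes, written on the strand of the gene, where they read CCGCCC. The Gabrb1 window shown holds none, nor does a further Gabrb1 window (chr5:71699682-71699981), which is not shown.
Gabra4: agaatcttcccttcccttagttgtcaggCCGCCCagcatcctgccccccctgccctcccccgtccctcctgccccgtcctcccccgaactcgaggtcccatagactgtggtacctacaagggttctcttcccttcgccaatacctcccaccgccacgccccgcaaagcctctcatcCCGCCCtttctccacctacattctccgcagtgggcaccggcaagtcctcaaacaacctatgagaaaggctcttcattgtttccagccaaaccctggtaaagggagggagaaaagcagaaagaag
Gabrb1: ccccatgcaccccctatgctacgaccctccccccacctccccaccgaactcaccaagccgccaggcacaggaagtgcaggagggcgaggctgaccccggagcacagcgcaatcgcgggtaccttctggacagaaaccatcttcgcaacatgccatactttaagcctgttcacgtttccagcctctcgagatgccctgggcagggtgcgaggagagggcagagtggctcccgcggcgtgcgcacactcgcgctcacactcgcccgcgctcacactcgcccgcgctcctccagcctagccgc

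Library totals ran from 13006008 to 16575045 counts in replicate 1 of each group and from 97056596 to 156128922 in replicate 2, so the second library of a group resolves low genes better. Levels are given as CPM, the count scaled to a common library size with TMM factors. Markers of several cell types were present in every group. The 17 neuron markers summed to 1.03 to 1.20% of counts in the sham libraries, 0.0767 to 0.275% on day 1, 0.0717 to 0.161% on day 3, 0.0191 to 0.0304% on day 7, 0.128 to 0.136% on day 21 and 0.144 to 0.150% on day 60. Of these markers 15, 16, 16, 16 and 15 were lower than sham at days 1, 3, 7, 21 and 60, with a median log2 fold change of -2.81, -3.25, -5.16, -3.12 and -2.95, and none of the 17 was at 0 in any library. The 15 astrocyte markers summed to 0.783 to 1.02% in sham, 0.519 to 1.5% on day 1, 0.480 to 0.982% on day 3, 0.121 to 0.213% on day 7, 0.286 to 0.399% on day 21 and 0.308 to 0.417% on day 60, with none at 0. Fibroblast markers went from 0.00567 to 0.00573% of counts in sham to 7.96 to 19.7% on day 7, and oligodendrocyte markers from 0.914 to 1.05% to 0.0448 to 0.0958%. Fewer cells of a type and less RNA per cell cannot be told apart in such libraries. The part of these marker changes in the receptor results below was not tested.

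Most receptor subunits were lower than sham at every time after stroke. Together the 39 genes held 0.122 to 0.126% of all counts in the sham libraries, 0.0148 to 0.0452% on day 1, 0.0157 to 0.0262% on day 3, 0.00796 to 0.00994% on day 7, 0.0239 to 0.0319% on day 21 and 0.0210 to 0.0317% on day 60. The upper day 21 value is replicate 2, where Grin3b made up 38.2% of the subunits' counts, and without Grin3b that library held 0.0197%, below the other library of the day. Both libraries of every time lay below both sham libraries, and day 7 lay below all others. Glutamate receptor subunits averaged 0.0826 ± 0.0067% of counts (SD, n = 2) in sham and 0.00781 ± 0.00099% on day 7. GABA-A subunits averaged 0.0416 ± 0.0036% in sham and 0.00113 ± 0.00040% on day 7. By day 60 they stood at 0.0204 ± 0.0066% and 0.00593 ± 0.00093%.

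**Figure D1:**
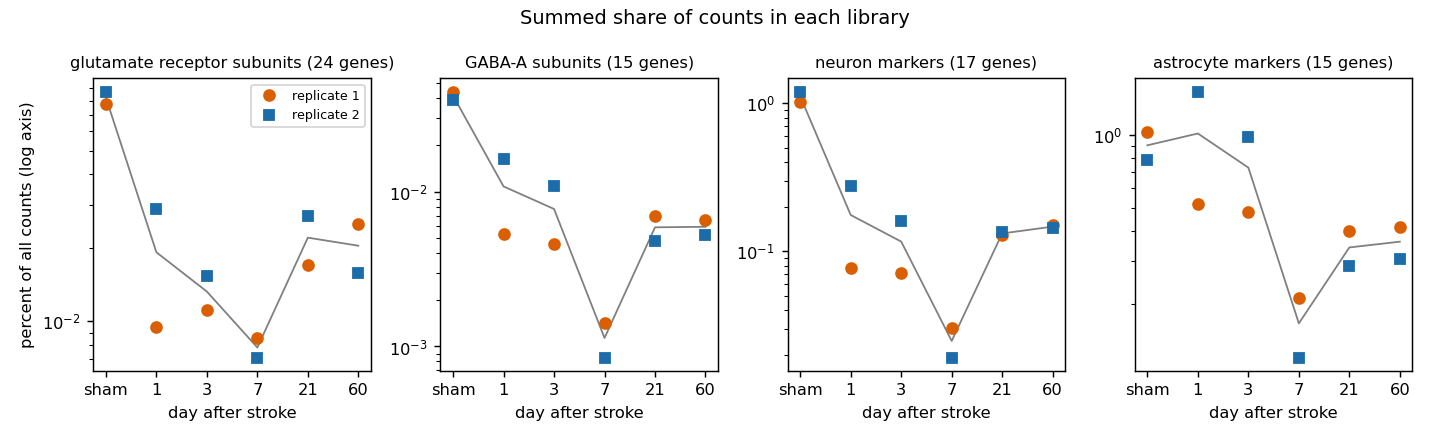
Summed percent of all counts (log axis) held by the 24 glutamate receptor subunits, the 15 GABA-A subunits, 17 neuron markers and 15 astrocyte markers, against day after stroke (evenly spaced). Points are the 2 libraries of each group and lines join their means. The receptor and neuron panels were lowest on day 7, at 0.00781%, 0.00113% and 0.0248% on average.

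A gene was called when its adjusted p was under 0.05 in edgeR's quasi-likelihood test, with Benjamini-Hochberg adjustment over all genes tested. Every adjusted p below is from that test. On day 1, 20 of 38 subunits were lower and 1 was higher, where 13.9% and 16.7% of all genes were. On day 3 the counts were 25 lower and 0 higher (14.2% and 18% of all genes), and on day 7 they were 30 lower and 0 higher (19.8% and 23.2%). On day 21, 21 were lower and 1 higher (15.4% and 17.8%), and on day 60, 20 were lower and 0 higher (14.8% and 16.8%). At an unadjusted p under 0.05, 1 subunit was higher on day 3, 1 on day 7 and 0 on day 60, and DESeq2 called 0 higher at each of these times. Counts at an unadjusted p stand without the share of all genes, here and below. The median log2 fold change of the 38 subunits was -2.69, -2.65, -4.72, -2.59 and -2.76 at days 1, 3, 7, 21 and 60, beside 0.06, 0.16, 0.13, 0.07 and 0.01 over all genes. These medians are the same with Gabre and Gabrr2, which had no counts in sham, set to their lowest possible fold. Without 1 library the number lower was 12 on day 1 (day 1 replicate 1 left out; 4.84% of all genes in that fit) and 13 on day 3 (day 3 replicate 1; 7.2%). On day 21 it was 11 or 7 (day 21 replicate 1 or 2; 6.41% or 5.25%). On day 60 it was 13, 10 or 10 (sham replicate 2, day 60 replicate 1 or 2; 7.43%, 9.12% or 6.11%). With the replicate number as a block, 25, 24, 31, 28 and 26 subunits were lower on days 1, 3, 7, 21 and 60 (19.8%, 19.1%, 24.8%, 21.8% and 21.1% of all genes). Calls that this block adds or ends are given with the genes below.

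Over all 6 groups together 30 of 38 subunits differed, against 42.7% of all genes. Counted without a test, both libraries lay below both sham libraries for 31, 34, 35, 35 and 34 of the 39 genes at days 1, 3, 7, 21 and 60 (33.2%, 31.2%, 36%, 35.4% and 34.3% of all genes). Both lay above for 1, 1, 1, 3 and 2 (33.8%, 35%, 40.4%, 38.4% and 33.1%). Of the 39 genes, 13 were lower at all 5 times, among them Gria1, Gria2, Grin2d, Grm2, Grm5, Gabra3, Gabra4, Gabra5, Gabrb2 and Gabrd. The share of all genes with this pattern, or keeping it without 1 library, is not given here, so these counts have nothing to be set against. Of these 13, 5 stayed called at every time whichever of the 12 libraries was left out, among them Gria2, Grin2d, Grm2 and Gabrd. The 6 never called lower were Grik1, Grid1, Grin3b, Gabre, Gabrr1 and Gabrr2. Of these 6, Grik1 was lower on day 21 with the block (adjusted p = 0.0372, against 0.108 without it).

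**Figure D2:**
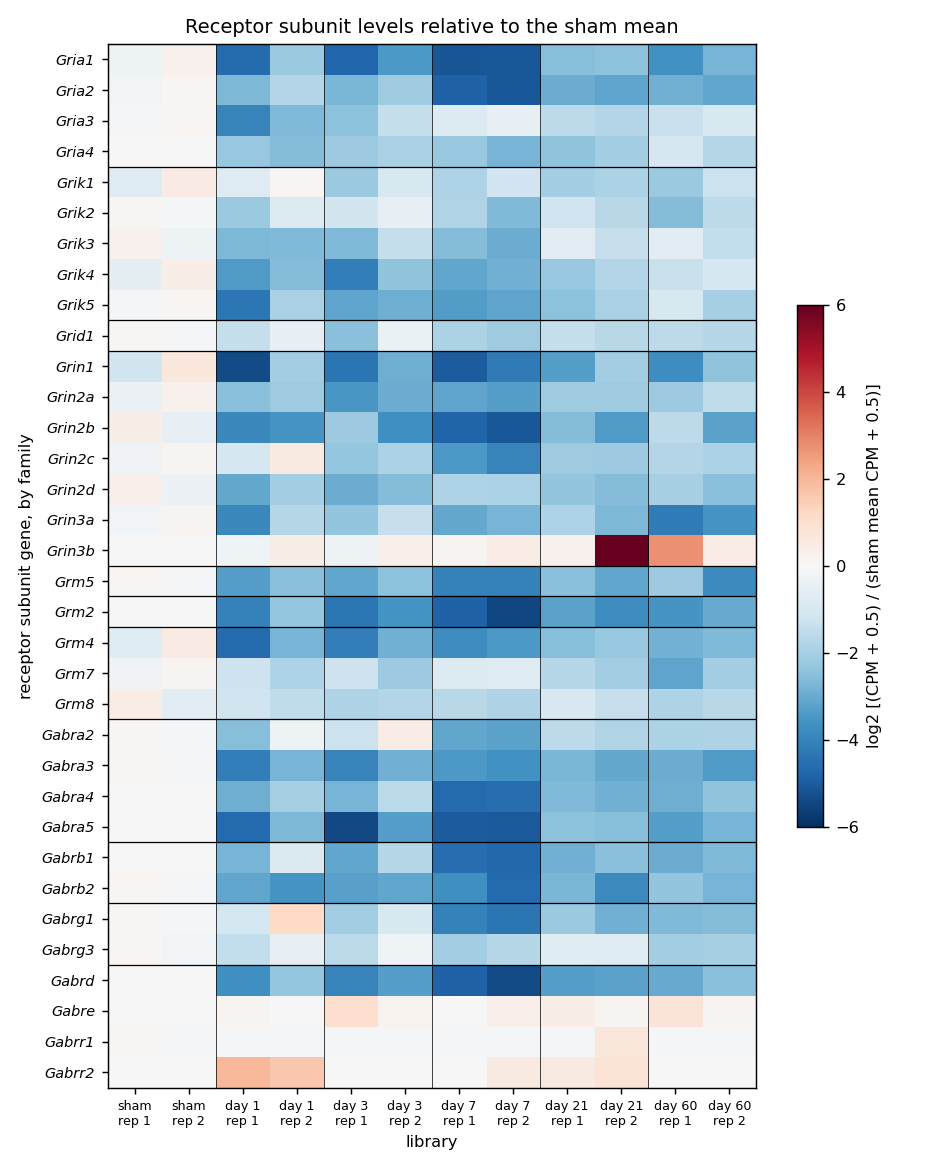
Level of 34 of the 39 subunit genes (rows, by family) in each of the 12 libraries (columns), as log2 of CPM plus 0.5 over the sham mean plus 0.5. Blue is lower and red higher than sham. Day 7 is the darkest blue for most rows, Gria3 is pale on day 7, and Grin2c and Gabrg1 are pale or red on day 1. Grin3b is red in 1 library of day 21 and a paler red in replicate 1 of day 60.

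**Figure D3:**
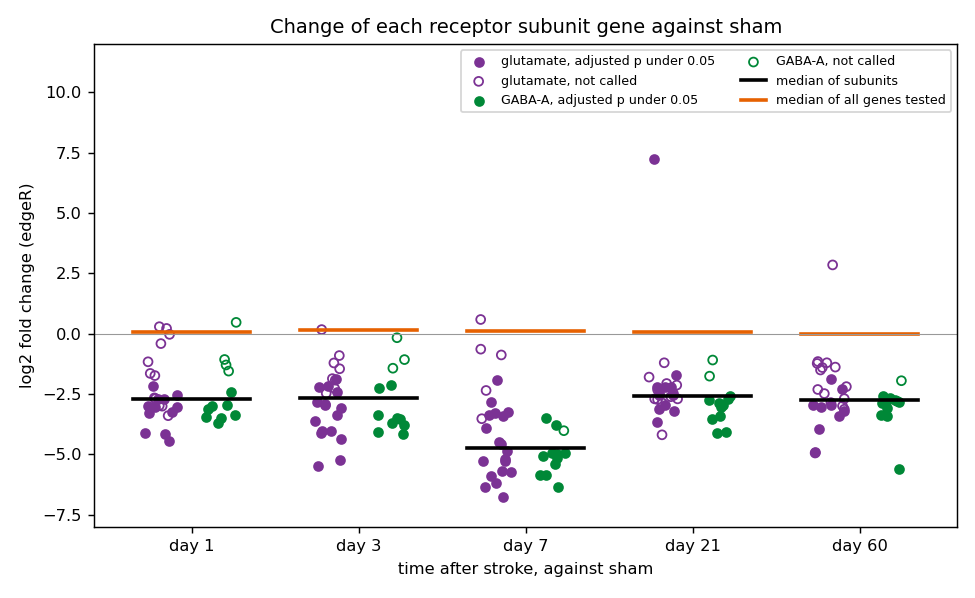
Log2 fold change against sham for each subunit at each time, with 1 point per gene, filled where the adjusted p was under 0.05. Gabrr1, which was not tested, and Gabre and Gabrr2, which had no counts in sham, are not drawn. Black bars are the median of the 38 tested subunits (-4.72 on day 7) and orange bars the median of all 15635 genes.

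AMPA receptors carry most fast excitation, and all 4 of their subunits were lower at days 1, 3 and 21, with 3 lower on day 7 and 2 on day 60. Gria2, the subunit whose edited form keeps calcium out of the channel, stood at 101 and 122 CPM in the sham libraries (replicates 1 and 2). It stood at 16.6 and 32.5 on day 1, 16.1 and 25 on day 3, 3.36 and 2.77 on day 7, 13.8 and 12 on day 21, and 14.6 and 12.6 on day 60. Every library after stroke lay below both sham libraries, and the day 7 libraries lay below all the others. Its log2 fold change was -2.18 ± 0.40 (SE) on day 1 (adjusted p = 0.00427), -5.19 ± 0.46 on day 7 (adjusted p = 5.08e-05) and -3.04 ± 0.41 on day 60 (adjusted p = 0.000678). Gria1, a subunit inserted into synapses with activity, went from 110 and 162 CPM in sham to 5.11 and 28.4 on day 1, 4.62 and 12 on day 3, 3.43 and 3.51 on day 7, 22.5 and 24.7 on day 21, and 10.5 and 19.3 on day 60. No library after stroke reached the sham range. Its calls ended on day 1 without sham replicate 2 (adjusted p = 0.0586), on day 21 without sham replicate 2 or either day 21 library (up to 0.114) and on day 60 without day 60 replicate 1 (0.0701). Gria4 was 12.5 CPM in both sham libraries and 1.40 to 6.01 in all others. It passed at all times but day 60 (log2 -1.40 ± 0.53, adjusted p = 0.0682, and 0.0398 with the replicate block). Its call ended on day 3 without sham or day 3 replicate 1 (up to 0.0551) and on day 21 without day 21 replicate 1 (0.0632).

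Gria3 had its lowest level on day 1. It read 53.1 and 63.1 CPM in sham, 3.11 and 8.93 on day 1, 10.2 and 21.2 on day 3, 32.9 and 41.5 on day 7, 19 and 16.9 on day 21, and 22.5 and 29.6 on day 60. Its highest level after stroke was on day 7, where the other AMPA subunits were at their lowest. Against sham it was lower on day 1 (log2 -3.26 ± 0.54, adjusted p = 0.00311), day 3 (-1.88 ± 0.51, 0.0195) and day 21 (-1.70 ± 0.51, 0.0282). It was not called on day 7 (-0.64 ± 0.50, adjusted p = 0.323) or day 60 (-1.16 ± 0.50, 0.106, and 0.03 with the replicate block). Tested directly, day 7 was higher than day 1 by log2 2.61 ± 0.53 (adjusted p = 0.00845), which held whichever library was left out. The day 3 call ended without either sham library or day 3 replicate 1 (adjusted p up to 0.118), and the day 21 call without any sham or day 21 library (up to 0.139). Counts per exon length put Gria3 at 15.8 ± 1.4% of the AMPA subunits in sham (SD, n = 2), 11.8 ± 0.59% on day 1, 33.5 ± 1.7% on day 3, 78.0 ± 4.5% on day 7, 26.4 ± 2.7% on day 21 and 39.2 ± 0.83% on day 60. Gria2 went from 19.2 ± 1.4% in sham to 4.14 ± 1.0% on day 7. Fibroblast, microglia (0.359% of counts, against 0.0629% in sham) and mural markers (0.154% against 0.0456%) also had their highest mean sums on day 7, and their part in the Gria3 level was not tested.

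**Figure D4:**
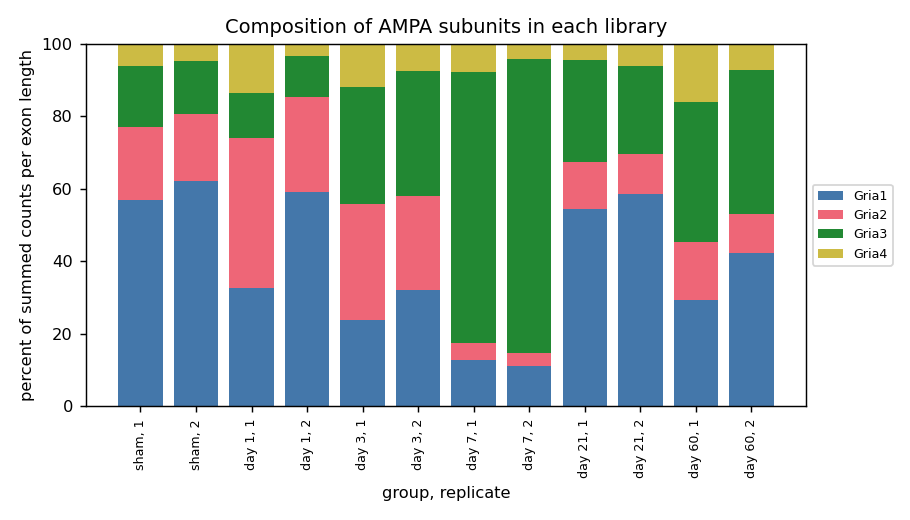
Make-up of the AMPA subunits in each library, as percent of the family's counts per exon length. Each bar is 1 library. Gria3 makes up 78.0% of the AMPA subunits on average on day 7 and 15.8% in sham.

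Kainate receptors modulate transmission before and after the synapse. Grik5, a high-affinity subunit that needs a partner to form a channel, was the highest of all members per exon length in sham, at 40.0 CPM per kb, ahead of Gria1 and Gabra5 at 22.5 each. Grik5 read 192 and 222 CPM in sham, 9.67 and 54.1 on day 1, 22.6 and 27 on day 3, 19.9 and 22.6 on day 7, 37 and 52.9 on day 21, and 108 and 50.8 on day 60. All libraries after stroke lay below sham, and day 60 replicate 1 came closest. It was lower on day 1 (log2 -2.69 ± 0.68, adjusted p = 0.0154), day 3 (-3.06 ± 0.70, 0.00879), day 7 (-3.28 ± 0.70, 0.00405) and day 21 (-2.20 ± 0.67, 0.0297), and not called on day 60 (-1.39 ± 0.66, 0.133). Its call ended on day 1 without sham replicate 2 (adjusted p = 0.0542), on day 3 without day 3 replicate 1 (0.0598) and on day 21 without any sham or day 21 library (up to 0.148). Grik5 made up 88.5 to 92.0% of kainate subunits per exon length in every group.

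Grik4, the other high-affinity kainate subunit, stood at 10.6 and 21.7 CPM in sham, 1.06 and 2.2 on day 1, 0.443 and 2.58 on day 3, 1.41 and 1.72 on day 7, 2.97 and 4.39 on day 21, and 6.19 and 7.82 on day 60. No library after stroke reached sham, and those of day 60 were the nearest. It was not called on day 21 (adjusted p = 0.0559, and 0.012 with the replicate block). Its calls at days 1, 3 and 7 (log2 -3.29 to -3.37, SE 0.81) each ended without 1 library: on day 1 sham replicate 2 or day 1 replicate 1 (adjusted p up to 0.0892), on day 3 sham replicate 2 (0.0657) and on day 7 day 7 replicate 1 (0.0567). Grik1, Grik2 and Grik3, which form channels on their own, were 0.836 to 4.54 CPM in sham. Grik3 passed at days 1 and 7 and Grik2 on day 7, and each of these calls ended without 1 or more libraries (adjusted p up to 0.0921, 0.0734 and 0.239). For Grik3 these were sham replicate 1 or a day 1 library on day 1 and day 7 replicate 2 on day 7, and for Grik2 any sham, day 7 or day 21 library. The delta subunits, which bind cerebellins and do not open to glutamate, were low in sham. Grid1 read 2.63 and 2.12 CPM in sham and 0 to 1.65 in all other libraries, below sham throughout, and passed at no time.

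NMDA receptors need glutamate and a co-agonist, and they combine the obligatory Grin1 with Grin2 subunits. Grin2d, known from embryonic brain and interneurons, was 69.8 and 44.4 CPM in sham, 6.45 and 13.3 on day 1, 6.83 and 9.12 on day 3, 15.4 and 14.7 on day 7, 10.8 and 8.86 on day 21, and 13.8 and 9.63 on day 60. Its libraries after stroke stayed within 6.45 and 15.4 CPM, all below sham. It was lower at all times, by log2 -1.92 ± 0.44 (day 7, adjusted p = 0.00586) to -2.83 ± 0.46 (day 3, adjusted p = 0.00177). Grin2c, a subunit of cerebellar granule cells that is also known from cortical astrocytes, was 41.8 and 54 CPM in sham, 23.2 and 70.5 on day 1, 9.18 and 12.3 on day 3, 3.96 and 2.51 on day 7, 10.4 and 10.3 on day 21, and 13.8 and 12.6 on day 60. The day 1 libraries lay on either side of the sham pair, and every later library lay below it. Grin2c was not called on day 1 (log2 -0.03 ± 0.48, adjusted p = 0.974), and its sign there changed without sham replicate 2 or day 1 replicate 1. It was lower on day 3 (-2.15 ± 0.51, adjusted p = 0.0101), day 7 (-3.90 ± 0.55, 0.000458), day 21 (-2.21 ± 0.51, 0.00878) and day 60 (-1.86 ± 0.50, 0.0191). Day 7 was lower than day 1 by log2 3.87 ± 0.55 on direct test (adjusted p = 0.00147), whichever library was left out. Calls ended on day 3 without sham replicate 2 or day 3 replicate 1 (adjusted p up to 0.0666), on day 21 without either day 21 library (up to 0.0620) and on day 60 without sham replicate 2 or either day 60 library (up to 0.0954). Per exon length Grin2c was 35.7 ± 1.3% of the NMDA subunits in sham and 78.2 ± 0.64% on day 1, and Grin2d was 33.4 ± 15% in sham and 66.2 ± 0.18% on day 7.

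Grin1 differed between its sham libraries, 27 and 94.2 CPM, and ran from 1 to 14 after stroke, with all 10 libraries below sham. It passed on day 3 (log2 -3.60 ± 1.16, adjusted p = 0.0376) and day 7 (-4.86 ± 1.24, 0.00998), and both calls ended without sham replicate 2 or either library of the time (up to 0.192 and 0.0715). With the replicate block it was also lower on day 1 (0.0015), day 21 (0.00469) and day 60 (0.00256). Exons of Grin1 and the antisense gene Grin1os overlap by 1307 bases, and the strand setting of the counts is not given, so reads of the pair cannot be told apart there. Grin2b, a subunit of immature synapses, was 27.4 and 15.1 CPM in sham, 1 to 6.82 at days 1, 3, 21 and 60, and 0.269 and 0.149 on day 7, the lowest of its libraries. It passed at days 1, 3, 7 and 21, and on day 60 with the replicate block alone (adjusted p = 0.00734). The day 7 call (log2 -6.78 ± 1.04, adjusted p = 0.000694) held without any library, and the others ended without day 1 replicate 1 (0.0593), sham replicate 1 or day 3 replicate 2 (up to 0.117), and sham replicate 1 or either day 21 library (up to 0.119). Grin2a and Grin3a passed at 2 times each, days 3 and 7 and days 7 and 60. The replicate block added days 1 and 21 for Grin2a (adjusted p = 0.032 and 0.0466) and for Grin3a (0.0201 and 0.0459). Of the 4 calls made without it only that of Grin2a on day 3 held without each library. Grin2a on day 7 ended without day 7 replicate 2 (adjusted p = 0.0554), Grin3a on day 60 without day 60 replicate 1 (0.0548) and Grin3a on day 7 without any sham or day 7 library (up to 0.117).

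Grin3b, a glycine-gated modulatory subunit, was called higher on day 21 through 1 library. It read 0.418 and 0.462 CPM in sham, 0.278 and 0.687 on day 1, 0.253 and 0.667 on day 3, 0.537 and 0.763 on day 7, 0.616 and 134 on day 21, and 5.84 and 0.761 on day 60. Replicate 2 of day 21 held 14915 counts and was 22.9-fold above the highest of the other 11 libraries. The log2 fold change was 7.23 ± 1.96 (adjusted p = 0.0182), with the other library of that day near sham, and the call ended without that library (adjusted p = 0.849) and without either sham library. The same library was also the highest for 3 genes within 50000 bases: Wdr18 (229 CPM, 1.42-fold over the next library), Tmem259 (188 CPM, 3.55-fold) and Abca7 (236 CPM, 7.67-fold). It was not the highest for R3hdm4, Kiss1r, Arid3a or Cnn2 in the same window. Exons of Grin3b (chr10:79970715-79977190, plus strand) share 1059 of 3296 bases with Tmem259 on the opposite strand. Whether reads of the neighbours entered the Grin3b count was not tested.

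Metabotropic receptors of group I act through Gq, and those of groups II and III lower cyclic AMP. Grm5 (group I), the main metabotropic receptor of young astrocytes, stood at 28.1 and 23.8 CPM in sham, 2.17 and 4.17 on day 1, 2.53 and 4.32 on day 3, 1.07 and 1.08 on day 7, 4.2 and 2.57 on day 21, and 5.38 and 1.39 on day 60. All libraries after stroke lay below sham, and Grm5 was lower at every time, by log2 -2.91 ± 0.69 (day 3, adjusted p = 0.0106) to -4.59 ± 0.75 (day 7, 0.000987). The day 7 call held without any library, and the others ended without day 1 replicate 1 (0.0747), day 3 replicate 1 (0.069), day 21 replicate 2 (0.0841) or day 60 replicate 2 (0.0502). 

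Grm2 (group II), an autoreceptor of glutamate terminals, was 45.6 and 44.5 CPM in sham, 2.28 and 8.7 on day 1, 1.77 and 3.3 on day 3, 1.07 and 0.521 on day 7, 4.37 and 2.87 on day 21, and 3.38 and 5.08 on day 60. The sham pair stood more than 5 times above every other library. It was lower by log2 -3.02 ± 0.67 on day 1 (adjusted p = 0.00914), -5.89 ± 0.78 on day 7 (0.000347) and -3.41 ± 0.68 on day 60 (0.00528). Group III receptors are presynaptic in the main. Grm7 was 6.45 and 8.52 CPM in sham, 2.83 and 1.69 on day 1, 2.91 and 1.26 on day 3, 3.96 and 4.17 on day 7, 1.9 and 1.37 on day 21, and 0.401 and 1.46 on day 60. It was nearest to sham on day 7 (log2 -0.88 ± 0.72, adjusted p = 0.347) and lower on day 21 (-2.20 ± 0.75, 0.0455) and day 60 (-2.96 ± 0.77, 0.0166). The first call ended without any sham, day 7 or day 21 library (up to 0.219) and the second without sham replicate 2 or day 60 replicate 1 (up to 0.0669). Grm4 was 6.81 and 16.4 CPM in sham, 0 and 1.24 on day 1, 0.19 and 1.16 on day 3, 0.403 and 0.605 on day 7, 1.57 and 2 on day 21, and 1.2 and 1.44 on day 60. All libraries after stroke lay below sham. Its calls at days 1, 3 and 7 (adjusted p 0.0435, 0.0459 and 0.0261) ended at days 1 and 3 without any of 9 and 10 of the 12 libraries, both of sham among them (up to 0.174 and 0.184), and without sham replicate 2 or a day 7 library on day 7 (up to 0.128). The replicate block added day 60 (adjusted p = 0.0361). Grm8, at 1.91 and 0.664 CPM in sham and 0 to 0.448 after stroke, passed at days 3 and 7, where it held 4 counts and 1 count in all. With the replicate number as a block its day 3 call was lost (adjusted p = 0.0556), and 8 and 5 of the 12 libraries each ended a call when left out (up to 0.170 and 0.210).

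The alpha subunits of the GABA-A receptor set its GABA sensitivity, and 4, 4, 5, 4 and 4 of the 5 were lower at days 1, 3, 7, 21 and 60. Gabra5, the alpha subunit of extrasynaptic receptors in hippocampus and deep cortex, was 65.3 and 68.6 CPM in sham, 2.17 and 9.84 on day 1, 1.08 and 6.26 on day 3, 1.61 and 1.57 on day 7, 11.6 and 11.1 on day 21, and 6.42 and 9.19 on day 60. Days 21 and 60 lay above day 7 but below sham in both libraries. Its fold change was log2 -3.46 ± 0.83 on day 1, -4.15 ± 0.85 on day 3, -5.39 ± 0.91 on day 7, -2.56 ± 0.80 on day 21 and -3.10 ± 0.81 on day 60. The calls ended on day 1 without day 1 replicate 1 (adjusted p = 0.0655), on day 21 without any sham or day 21 library (up to 0.144) and on day 60 without any sham or day 60 library (up to 0.0920).

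Gabra3 and Gabra4 were also lower at all times, by log2 -2.14 to -5.05. Gabra4 ended on day 1 without day 1 replicate 1 (adjusted p = 0.054) and on day 3 without day 3 replicate 1 (0.0597), and Gabra3 on day 21 without day 21 replicate 2 (0.0582). Gabra2 was the exception among the alpha subunits. It read 22.1 and 19.9 CPM in sham, 3.17 and 16.7 on day 1, 8.35 and 28.9 on day 3, and 1.95 and 1.8 on day 7, so that day 3 replicate 2 lay above sham. It was not called on day 3 (log2 -0.17 ± 0.71, adjusted p = 0.883) and was lower on day 7 (-3.49 ± 0.79, 0.00559), without change when any library was left out. With the replicate block it was also lower on day 21 (adjusted p = 0.0476) and day 60 (0.0324). Its replicates of days 1 and 3 differed by more than 3-fold.

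Beta subunits complete the GABA site. Gabrb1 stood at 60.4 and 62.6 CPM in sham, 8.39 and 33.5 on day 1, 6.71 and 18.7 on day 3, 2.08 and 1.86 on day 7, 7.79 and 10.6 on day 21, and 7.5 and 9.49 on day 60. All libraries after stroke were below sham, with the 2 of day 1 far apart. It was not called on day 1 (log2 -1.55 ± 0.63, adjusted p = 0.0875, and 0.0168 with the replicate block) and was lower from day 3 (-2.27 ± 0.65, 0.0231) through day 7 (-4.97 ± 0.73, 0.000577) to day 60 (-2.85 ± 0.66, 0.0101). The day 3 call ended without either sham library or day 3 replicate 1 (up to 0.122), and those of days 21 and 60 without either library of that day (up to 0.0778 and 0.0610). Gabrb2, a subunit of most adult GABA-A receptors, was lower at all times, by log2 -2.78 to -4.95. Its day 21 call ended without day 21 replicate 2 (0.0573) and its day 60 call without any sham or day 60 library (up to 0.0961).

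Gamma subunits anchor the receptor at synapses and form the benzodiazepine site. Gabrg1, a gamma subunit known from astrocytes as well as from some subcortical neurons, was 20.1 and 18.2 CPM in sham, 8.89 and 43.9 on day 1, 4.18 and 9.92 on day 3, 0.672 and 0.437 on day 7, 3.75 and 2.17 on day 21, and 2.63 and 2.72 on day 60. The day 1 libraries lay on either side of sham, and later ones lay below it. On day 1 it was not called (log2 0.47 ± 0.68, adjusted p = 0.637), and the sign there rested on replicate 2, without which the value was -1.24. It was lower on day 7 (-5.16 ± 0.84, adjusted p = 0.000929), day 21 (-2.71 ± 0.73, 0.0179) and day 60 (-2.84 ± 0.74, 0.0163). Tested directly, day 7 was lower than day 1 by log2 5.63 ± 0.85 (adjusted p = 0.00215), whichever library was left out. The calls of days 21 and 60 ended without sham replicate 1 or either library of the day (up to 0.125 and 0.0860). Gabrg1 was 38.8 ± 0.37% of gamma counts per exon length in sham, 85.1 ± 3.6% on day 1 and 74.9 ± 7.1% on day 3. Gabrg3, at 1.85 and 1.43 CPM in sham, passed on day 60 (0 and 0.0435 CPM, adjusted p = 0.0275), and that call ended without any sham or day 60 library (up to 0.0887). The replicate block added day 7 (adjusted p = 0.0219).

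Gabrd makes extrasynaptic receptors for tonic inhibition. It was 40.7 and 40.6 CPM in sham, 2.72 and 7.65 on day 1, 2.09 and 3.72 on day 3, 0.94 and 0.512 on day 7, 3.64 and 3.96 on day 21, and 4.58 and 6.68 on day 60. Both sham libraries stood more than 5-fold above all others. Its log2 fold change was -2.96 ± 0.58 on day 1 (adjusted p = 0.00562), -5.87 ± 0.68 on day 7 (0.000173) and -2.85 ± 0.58 on day 60 (0.00548). Gabrr2, a rho subunit best known from retina, ran the other way at a low level. It had 0 counts in both sham libraries, which allows up to 0.0249 CPM over the group, and 27 and 114 counts (1.5 and 1.06 CPM) on day 1, at least 45.2-fold higher. It was listed at 0 in all 4 libraries of days 3 and 60 and stood at 0 to 0.376 CPM at days 7 and 21. The day 1 call (adjusted p = 0.0303) ended without any sham, day 1 or day 21 library (up to 0.156). Gabre had 0 to 0.506 CPM and Gabrr1 0 to 0.349 CPM in all libraries, and neither was called.

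**Figure D5:**
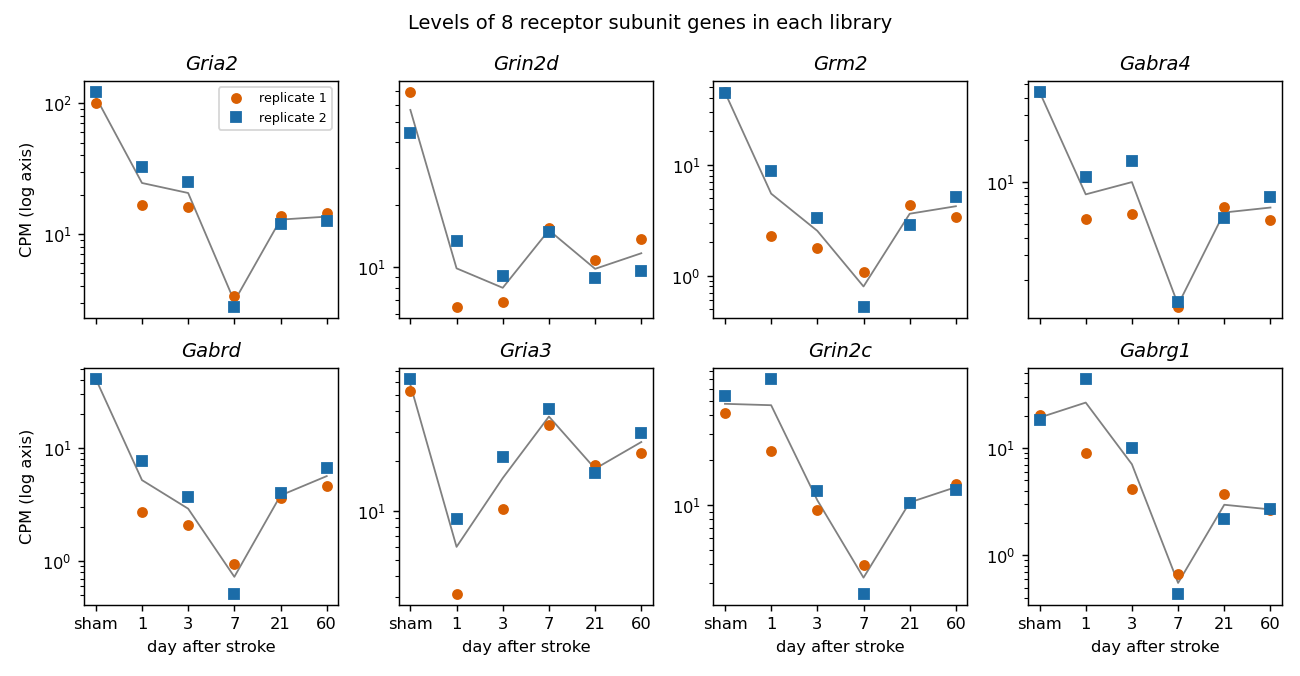
CPM (log axis) of 8 subunit genes in each library, by day after stroke (evenly spaced). Circles and squares are the 2 libraries of a group and lines join their means. Gria2, Grm2, Gabra4 and Gabrd have their lowest level on day 7 (3.06, 0.798, 1.33 and 0.726 CPM on average), Gria3 its lowest on day 1, and Grin2c and Gabrg1 span the sham level on day 1.

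Most GABA-A subunit genes lie in clusters, and neighbours in the cluster described here gave unequal values on day 1. On chromosome 5 (chr5:70751047-72149037) Gabrg1, Gabra2, Gabra4 and Gabrb1 lie within 1398 kb, and on day 1 their log2 fold changes were 0.47, -1.07, -2.43 and -1.55. Of these 4, Gabra4 alone passed at that time, and its call ended without day 1 replicate 1. With the replicate block Gabrb1 passed too (adjusted p = 0.0168). The libraries of day 1 were far apart, at 8.89 and 43.9 CPM for Gabrg1 and 3.17 and 16.7 for Gabra2. Gabra4 read 5.45 and 10.9, and Gabrb1 8.39 and 33.5. In replicate 1 of day 1 all 4 lay below both sham libraries. On day 7 all 4 genes of the chromosome 5 cluster were lower, by log2 -5.16, -3.49, -5.05 and -4.97. The differences between the neighbours were not tested.

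The order of the subunits per exon length changed with time. Grik5 (40.0 CPM per kb), Gria1 (22.5) and Gabra5 (22.5) led in sham, Grin2c (9.30), Grik5 (6.17) and Gabrg1 (3.36) on day 1, and Grik5 (4.80), Gabra2 (2.44) and Grin2c (2.13) on day 3. Grik5 (4.12), Gria3 (3.78) and Grin2d (2.27) led on day 7, and Grik5 (15.3), Gria3 (2.65) and Gabra5 (2.62) on day 60. On day 21 the order was Grin3b (20.4, all but a small part from 1 library), Grik5 (8.69) and Gria1 (3.90). The libraries of a time differed by more than 3-fold for Grin2c, Grik5 and Gabrg1 on day 1 and for Gabra2 on day 3, and Gabra5 and Grin2c stood at 2.62 and 2.61 on day 60, so these ranks are not distinguished from their neighbours.

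The receptors were also set against the neuron markers of the same library, as counts per 100 counts of the 17 markers. All 39 subunits gave 11.2 ± 0.93 in sham (SD, n = 2), 17.9 ± 2.0 on day 1, 19.1 ± 4.0 on day 3, 37.2 ± 6.3 on day 7, 21.1 ± 3.4 on day 21 and 17.9 ± 4.6 on day 60. On day 21 replicate 2 gave 23.5, and 14.5 without Grin3b, which puts the day 21 mean at 16.6 ± 2.9. GABA-A subunits gave 3.78 ± 0.73 in sham, 6.43 ± 0.71 on day 1, 6.59 ± 0.22 on day 3, 4.56 ± 0.17 on day 7, 4.49 ± 1.4 on day 21 and 4.03 ± 0.51 on day 60. Glutamate receptor subunits gave 7.43 ± 0.20 in sham, 32.6 ± 6.5 on day 7 and 13.9 ± 4.1 on day 60. These ratios are descriptions without a test. Gria3 accounts for part of the day 7 value, with 0.522 and 0.485 per 100 in sham and 9.83 and 14.9 on day 7. In this ratio Grik5 and Grin2d were also higher on day 7 than in sham in both libraries, and Grm2 and Gabrd were lower.

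From day 1 to day 3 the only call was Grin2c, lower by log2 2.12 ± 0.51 (adjusted p = 0.0496). That left 1 lower and 0 higher calls (0.48% and 3.09% of all genes), with 1 subunit higher at an unadjusted p under 0.05 and 0 by DESeq2. The Grin2c call ended without any library but day 1 replicate 1 (up to 0.23). From day 3 to day 7, 7 subunits were lower and 0 higher (3.22% and 3.06% of all genes), with 2 higher at an unadjusted p under 0.05. DESeq2 called 11 lower and 0 higher (9.98% and 7.7% of all genes), and the replicate block 9 lower, with Gabrd (adjusted p = 0.0284) and Grin2c (0.0309) added, and Gria3 higher (0.0414) (8.97% and 9.27%). Among the 7 were Gria2 (log2 -2.76 ± 0.41, adjusted p = 0.0117), Grin2b (-3.81 ± 0.94, 0.0423), Gabra2 (-3.32 ± 0.79, 0.0374), Gabra4 (-2.91 ± 0.53, 0.0177), Gabrb1 (-2.70 ± 0.67, 0.0420) and Gabrg1 (-3.73 ± 0.79, 0.0274). The number lower fell without any sham, day 3, day 7, day 21 or day 60 library, furthest without either day 7 library. It rose without either day 1 library. The share of all genes called lower also fell without either sham library and rose without either day 1 library. From day 7 to day 21 there were 0 calls in each direction (0.243% of all genes higher and 0.198% lower). At an unadjusted p under 0.05, 18 subunits were higher and 0 lower, a count with no share of all genes beside it and not read as a result. DESeq2 called 14 higher (4.59% of all genes) and the replicate block 8 (2.21%), among them Gria1, Gria2, Grin2b, Gabra4, Gabra5, Gabrb1 and Gabrd. Without day 1 replicate 1 or 2, 3 were called higher (0.966% or 1% of all genes). From day 21 to day 60 there were 0 calls (0% in each direction), with 0 higher and 4 lower at an unadjusted p under 0.05 and 0 by DESeq2.

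Over longer intervals 9 subunits were lower and 1 higher on day 7 than on day 1 (7.54% and 10.6% of all genes), while the replicate block gave 14 lower (14% of all genes) and DESeq2 16 (14.1%). The number lower was 3 without day 7 replicate 2 (1.58% of all genes), 6 without day 7 replicate 1 (2.03%) and 5 without day 1 replicate 2 (4.1%). Among the 9 were Gria2, Grin2c, Grm2, Gabra4, Gabrb1, Gabrg1 and Gabrd, and the 1 higher was Gria3. Of these 10 calls Gria2, Gria3, Grin2c and Gabrg1 held without each library in turn, and each of the other 6 ended without day 7 replicate 2, some also without day 7 replicate 1 or day 1 replicate 2 (adjusted p up to 0.146). Day 60 was higher than day 7 for 5 subunits and lower for 0 (1.55% and 2.39% of all genes), with 2 lower at an unadjusted p under 0.05, 1 lower and 20 higher by DESeq2 (6.48% and 7.42% of all genes), and 13 higher with the replicate block (5.66%). The number higher fell without any sham, day 7, day 21 or day 60 library, furthest without either day 7 library or day 60 replicate 1. It rose without either day 1 library. The share of all genes called higher also fell without either sham library and rose without either day 1 library. Among the 5 were Gria2 (log2 2.15 ± 0.40, adjusted p = 0.0203), Grin2b (4.47 ± 0.96, 0.0346), Gabra4 (2.31 ± 0.52, 0.0409) and Gabrd (3.02 ± 0.61, 0.027), and each of the 5 ended without 3 to 8 of the 12 libraries, those of day 7 among them (up to 0.236). Against day 1, day 21 had 2 lower and 1 higher (3.4% and 6.56%) and day 60 had 2 lower and 1 higher (3.35% and 5.78%): Gabrg1 and Grin2c were lower at both, Grin3b higher on day 21 and Gria3 on day 60. With the replicate block the counts were 2 higher and 2 lower on day 21 (11.8% and 9.87% of all genes). On day 60 they were 2 higher and 3 lower (10.2% and 8.57%). These 6 calls each ended without 3 to 11 of the 12 libraries (up to 0.942). Against day 3, day 21 had 0 calls (2.56% higher and 3.04% lower) and day 60 had 0 (2.27% and 3.01%). At an unadjusted p under 0.05, 3 subunits were higher and 0 lower on day 21, and 3 higher and 3 lower on day 60. DESeq2 gave 1 higher on day 21 and 2 higher and 2 lower on day 60, counts given without the DESeq2 share of all genes. The replicate block gave 1 higher on each day (6.88% of all genes on day 21 and 6.08% on day 60).

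Transcripts for proteins that traffic, anchor or serve these receptors were counted in 6 lists. Of 70 tested genes, 38, 40, 47, 36 and 37 were lower at days 1, 3, 7, 21 and 60 (all genes 13.9%, 14.2%, 19.8%, 15.4% and 14.8%), with a median log2 fold change of -2.60, -3.07, -3.80, -2.37 and -2.37 beside medians between 0.01 and 0.16 over all genes. Among 14 auxiliary subunits of AMPA and kainate receptors, 8, 7, 8, 7 and 8 were lower and none was higher. On day 7 Cacng2 (stargazin) changed by log2 -5.74 ± 0.76 (adjusted p = 0.00034), Cacng3 by -5.69 ± 1.01 (0.0015), Neto1, a kainate partner, by -5.62 ± 0.86 (0.0007) and Cnih3 (cornichon) by -5.28 ± 0.53 (8.9e-05). Neto2 passed at no time (log2 -0.89 to 0.11).

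Of 26 excitatory scaffold and adhesion genes, 19, 19, 21, 16 and 16 were lower and none was higher. Shank1 changed by log2 -6.12 ± 1.07 on day 7 (adjusted p = 0.0014), Dlg2 by -5.28 ± 0.83 (0.00078) and Homer2 by -5.17 ± 1.11 (0.0041), while Grip2 had its largest change on day 3 (-5.32 ± 1.23, 0.0092). Of 9 genes of inhibitory synapses, 4, 4, 5, 4 and 3 were lower. Slitrk3, an adhesion protein, changed by log2 -5.42 ± 1.51 on day 7 (adjusted p = 0.015), Iqsec3 by -5.09 ± 0.67 (0.00033) and Lhfpl4, which links the receptor to neuroligin, by -4.46 ± 0.98 (0.0046). Gphn (gephyrin), which scaffolds glycine and GABA-A receptors and also makes the molybdenum cofactor in other cells, passed at no time (log2 -0.80 to -0.12). Of 10 secreted organizers, 4, 4, 6, 4 and 3 were lower, with Cbln2 at -7.15 ± 1.21 on day 7 (0.0012), Cbln4 at -6.46 ± 1.90 on day 3 (0.027), Nptx2 at -5.00 ± 0.74 on day 7 (0.0006) and Nptx1 at -4.67 ± 0.68 on day 7 (0.00054). Of 5 tested GABA-B and glycine receptor genes, 1, 3, 3, 2 and 3 were lower, among them Gabbr2 (-4.81 ± 0.92 on day 7, 0.0022) and Gabbr1 (-3.59 ± 0.58, 0.00093). Of 6 genes of transmitter synthesis and vesicle loading, 2, 3, 4, 3 and 4 were lower, among them Gad2 (-5.18 ± 0.63 on day 7, 0.00022) and Slc17a7 (-5.16 ± 0.98, 0.0021). Slc17a8, a vesicular glutamate transporter with 0 counts in sham, was higher at days 21 and 60 (adjusted p = 0.039 and 0.043), the only higher call in the 6 lists. Calls of single genes in these lists were not checked with a library left out. Gad1, Gad2 and Slc17a7 are also among the neuron markers, so these counts are not separate from them.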

How the data were processed

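RNA from sorted cortical astrocytes was sequenced in 12 libraries, 2 in each of 6 groups. The authors deposited raw counts per gene, and per the submitters' processing notes the tools were Bowtie2 2.3.4.2 and HTSeq 0.6.1 with the build mm10. The annotation and the strand setting were not given in the sources used here. The 189288 values of the whole table were identical to those of the single-library files. The receptor subunits and the gene lists were chosen with earlier results of these data known. Genes outside the subunits are named by a fixed rule, up to 4 of each list with the largest passing change, and Neto2, Gphn and Slc17a8 were chosen after their values were seen.

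Counts were fitted for all 12 libraries together, with one mean per group, in edgeR 4.0.16 (R 4.3.3; quasi-likelihood test, TMM scaling, filterByExpr with a minimum count of 10), which left 15635 genes and 6 residual degrees of freedom. Standard errors were taken as the log2 fold change divided by the root of F. Exon lengths, positions and overlaps were from GENCODE on GRCm38, read with GenomicRanges 1.54.1. Alternatives were DESeq2 1.42.0 (size factors in edgeR, or its own test), no filter, the replicate number as a block, and each library left out in turn. Sums without Grin3b were added after seeing the data. Same-numbered libraries deviated together over all genes in 15 of 15 pairs of groups (r = 0.319 to 0.713, across genes) and over the 38 subunits in 12 of 15 (-0.201 to 0.472). The pairing thus comes from the data, since the labels give the numbers alone, and replicate 1 was sequenced less deeply in every group. Gabra6, Gabrp, Gabrq, Gabrr3 and Grm6 were not analysed here. Some subunits and 1 gene of the other lists are counted in every total but not reported here by name.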

Additional observations from a re-analysis of the deposited data

Results flagged for a closer look

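Each value here is a difference between 2 times after stroke that passed in the same fit (edgeR's quasi-likelihood test, Benjamini-Hochberg adjustment over all genes), given as log2 fold change. Day 3 was lower than day 1 for Grin2c (-2.12). Day 7 was lower than day 3 for Gabra2 (-3.32), Gabra4 (-2.91), Gabrb1 (-2.70), Gabrg1 (-3.73), Gria2 (-2.76) and Grin2b (-3.81). Day 7 was lower than day 1 for Gabra4 (-2.62, adjusted p = 0.00817), Gabrb1 (-3.42, 0.00819), Gabrd (-2.91, 0.00938), Gabrg1 (-5.63, 0.00215), Gria2 (-3.01, 0.00129), Grin2c (-3.87, 0.00147) and Grm2 (-2.87, 0.0193). Gria3 was higher on day 7 than on day 1 (2.61, adjusted p = 0.00845) and on day 60 than on day 1 (2.10, 0.0331).

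Day 21 was lower than day 1 for Gabrg1 (-3.17, adjusted p = 0.0256) and Grin2c (-2.18, 0.0246) and higher for Grin3b (7.02, 0.0471), the last through 1 library. Day 60 was lower than day 1 for Gabrg1 (-3.30, adjusted p = 0.0234) and Grin2c (-1.83, 0.0482). Day 60 was higher than day 7 for Gabra4 (2.31), Gabrd (3.02), Gria2 (2.15) and Grin2b (4.47). Of the differences given here, 4 held whichever library was left out: Gabrg1, Gria2, Gria3 and Grin2c on day 7 against day 1. Neuron and astrocyte marker sums were also lowest on day 7, and their part in these differences was not tested.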

How the results depend on the processing

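All 147 calls of single subunits kept their direction and passed with DESeq2 size factors, with DESeq2's test and with no filter on low counts. With the replicate block 146 did, and the other was Grm8 on day 3. The calls that block added against sham are given with the genes, and those between times are given as counts. Leaving out 1 library kept every direction, and 305 of 1764 values no longer passed, which touched 88 of the 147 calls.

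Over the 12 such fits the number of subunits lower than sham ranged from 12 to 24 on day 1, 13 to 25 on day 3, 22 to 32 on day 7, 7 to 27 on day 21 and 10 to 26 on day 60, and the number higher from 0 to 1 on days 1 and 21. It ranged from 0 to 1 lower on day 3 against day 1, 0 to 9 lower on day 7 against day 3, and 0 to 3 higher on day 21 against day 7, and 20 to 32 subunits differed over all groups. On day 7 against day 3, the replicate block gave 1 higher and DESeq2 11 lower. On day 21 against day 7 the replicate block gave 8 higher and DESeq2 14. The shares of all genes beside these block and DESeq2 counts are given above. The ranges over the 12 fits stand here without such shares, which also changed from fit to fit, so they do not describe the subunits alone. The cause of these differences in counts was not tested.

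Some values that were not called changed sign with 1 library left out. On day 1 against sham, Gabrg1 ranged from -1.24 to 1.15, Grin2c from -1.18 to 0.51, with 0.16 without sham replicate 2, and Grin3b from -0.81 to 0.58. On day 3 Grin3b ranged from -0.89 to 0.54, and DESeq2 gave -0.031. Gabrr2 on day 7 gave no value without day 7 replicate 2, which held all its counts of that day. The lone library left in a group was assumed to vary like the other groups. Genes under about 1 CPM rest on few counts in replicate 1, so a difference in such a gene may have gone undetected at this depth. Calls were still made for Gabrr2, Grm8 and Gabrg3, which averaged 0.282, 0.314 and 0.652 CPM over the 12 libraries.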
